A study of Olea europaea with 36 samples.

Results

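SAL1 was followed here through 1 contig of the olive array, Contig_44917, out of 37449, in shoot tips of all 12 groups of the series. Whether other contigs of the array also come from SAL1 was not examined. The contig was taken by its row name, and the gene name, a bisphosphate nucleotidase and inositol polyphosphate phosphatase, is that of the putative Arabidopsis ortholog given in the paper. Contig_44917 had been selected on measured values of this array, as a candidate whose signal differed between the varieties Chiquitita and Arbosana and not between Chiquitita and seedlings with the same canopy. Levels in those 3 groups are therefore given as a description without a test, and tests were run only among the 9 groups that played no part in that choice.

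The array measured Cy3-labelled RNA from the tips of olive (Olea europaea) shoots, with 36 arrays in all and 3 for each group. The paper gives the end of spring as the harvest time of its actively growing shoots, and it gives none for dormant shoots. The varieties were Picual, Arbequina, Arbosana and Chiquitita, the last bred from a cross of Picual with Arbequina, all sampled as active shoot tips of adult trees in the field; Picual was also sampled dormant. Seedlings of Picual x Arbequina were pooled for short internodes (SILe), long internodes (LILe), small trunk diameter (SmaD) or large trunk diameter (LarD). Seedlings of Chiquitita x Arbosana were pooled for a canopy like that of Chiquitita (ChiCa), for simple branching or for complex branching. Each pool mixed tissue of several seedlings, so it gives the mean of those seedlings and not the spread among them, and the replicates of a group are separately harvested shoot samples.

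In Arabidopsis, SAL1 (also called FRY1) removes a phosphate from PAP, a by-product of the transfer of sulfate groups onto other molecules, and it also acts on inositol phosphates, which carry signals inside the cell. PAP that is not broken down moves between organelles and the nucleus and blocks enzymes that degrade RNA, and plants without SAL1 are altered in their response to drought and abscisic acid, in sulfur metabolism and in growth habit. SAL1 has also been linked in Arabidopsis to the transport of auxin, the hormone that directs shoot branching. None of these activities was measured in the olive samples, which give the level of the transcript alone.

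The sequence of the array's probe was not used here. The primer pair designed for RT-qPCR of this contig is shown because it is the only sequence of this contig in the sources used here:
Contig_44917 forward: ttccacggtcaatggcatcgagc
Contig_44917 reverse: gaaacccgaggaacactagtgcgc
The forward primer has 23 bases and a GC content of 56.5%, and the reverse primer 24 bases and 58.3%. The 22 primers for the 11 other contigs tested in that way have 20 to 25 bases and a GC content of 40.9% to 58.3%, so the SAL1 pair lies at the GC-rich end of the set. The position of the pair in the genome was not determined, since the reference table of olive genes carries no sequence and matched 0 of the contigs by name. Whether the primers and the array probe read the same copy or copies of the gene was not tested.

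The values are intensities normalized by the authors with RMA, and levels are given as their log2. The medians of the arrays lay between 9.25 and 9.64 on the log2 scale. The contigs of replicate arrays correlated at 0.947 to 0.992 (Pearson's r over log2 intensities) in 34 of the 36 pairs, and at 0.839 and 0.842 in the 2 pairs with SILe replicate 3, which stood apart. SmaD replicates 2 and 3 bear conflicting labels, with a title of the small diameter pool and a feature of short internodes, and they were taken as SmaD. CLV1 (Contig_43041), a receptor kinase of the shoot meristem, had a log2 group mean of 12.31 or more in every group. CDC45 (Contig_44219), a factor of DNA replication, was at 10.92 in active and 9.04 in dormant Picual.

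SAL1 transcript was at similar levels in most olive shoot tips, and it was low in Arbosana. The 3 Arbosana arrays had intensities of 424, 420 and 251. The 33 arrays of the other groups ran from 488 to 3074, so all Arbosana arrays lay below all others. The lowest of the 33 was SILe replicate 3, and the next was at 1160, in the simple branching pool. On its own array, the SAL1 contig exceeded 35.9% to 42.0% of the contigs in Arbosana and 46.9% to 77.3% in the other groups, a measure that does not depend on the scale of the array. All 3 Arbosana arrays lay below every other array for 338 contigs, 0.903% of those on the array, and for 407 when SILe replicate 3 was left out. The contig was chosen for a difference that involves Arbosana, so nothing is read from its place among them.

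**Figure D1:**
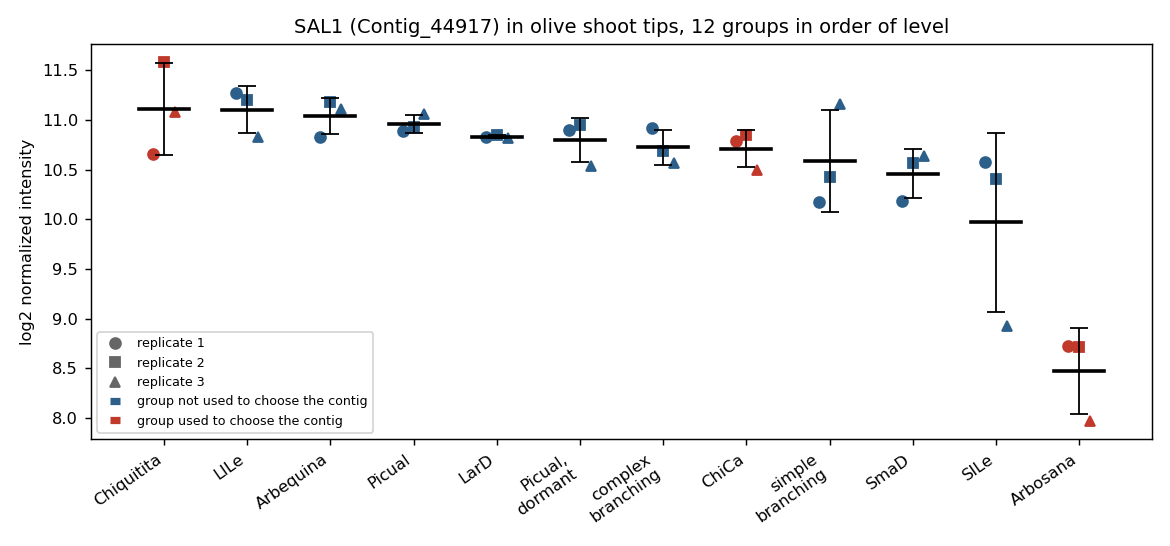
Log2 normalized intensity of SAL1 (y axis) in the 12 groups, ordered by mean (x axis); points are single arrays with a shape for each replicate, horizontal bars the means and whiskers the SD (n = 3 arrays), red for the groups on which the contig was chosen. The levels decline slowly from Chiquitita (11.11) to SmaD (10.46), SILe is spread widely around 9.97, and Arbosana lies apart at 8.47.

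In order of level, Chiquitita was highest with a log2 mean of 11.11 ± 0.46 (SD, n = 3 arrays), followed by LILe (11.11 ± 0.24), Arbequina (11.04 ± 0.19) and Picual (10.96 ± 0.093). LarD (10.83 ± 0.013), dormant Picual (10.80 ± 0.22), complex branching (10.73 ± 0.18) and ChiCa (10.71 ± 0.19) were next. Simple branching (10.59 ± 0.51), SmaD (10.46 ± 0.25), SILe (9.97 ± 0.90) and Arbosana (8.47 ± 0.43) closed the order. Of the 11 steps between neighbours in this order, 9 were smaller than the larger SD of the groups on either side, and the arrays of these neighbours overlapped. The exceptions were the step from Picual to LarD, which was only 0.13 (the arrays of these 2 groups did not overlap for 31.6% of all contigs), and that from SILe to Arbosana, 1.50. The 10 highest groups spanned 0.65 on the log2 scale. The first place changed from Chiquitita to LILe when the arrays were scaled by quantiles or by their medians.

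Chiquitita, the compact variety, had SAL1 intensities of 1616, 3074 and 2174, the widest range among the varieties, whereas Arbosana did not exceed 424. The difference between both varieties was 2.64 on the log2 scale, or 6.23-fold, and across the array 0.838% of contigs lay at least as far apart between them. The median contig differed by 0.093 in the same direction. This is the contrast on which the contig was chosen, and it is stated without a test. Against its own parents Chiquitita was not set apart, with a difference of 0.15 from Picual and 0.068 from Arbequina and overlapping arrays in both cases. It was Arbosana that lay away from the other varieties, 5.63-fold below Picual and 5.95-fold below Arbequina. The arrays did not overlap in either case, which held for 29.2% of all contigs between Arbosana and Picual and for 33.3% between Arbosana and Arbequina, in either direction.

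The seedlings of Chiquitita x Arbosana carried SAL1 at levels closer to that of Chiquitita than to that of Arbosana in all 3 pools on this array. Mean intensities were 1689 in ChiCa, 1612 in simple branching and 1702 in complex branching, against 2288 in Chiquitita and 365 in Arbosana. ChiCa had intensities of 1766, 1852 and 1450, the simple branching pool 1160, 1378 and 2298, and the complex branching pool 1935, 1651 and 1521. Every one of these 9 arrays lay above the highest Arbosana array, as for 8.1% of all contigs. Of the 9, 5 lay inside the range of the Chiquitita arrays and the rest lay below that range. On the log2 scale, ChiCa stood 85.0% of the way from the Arbosana mean to the Chiquitita mean, simple branching 80.4% and complex branching 85.5%. All 9 arrays exceeded the log2 mean of both parents (9.79, an intensity of 885). Against the mean of the parents' linear intensities, 1326, 8 of the 9 were higher. ChiCa was 4.74-fold, simple branching 4.35-fold and complex branching 4.78-fold above Arbosana, so the distance of the pool with the Chiquitita canopy lay between those of the branching pools. Chiquitita, Arbosana and ChiCa took part in the choice of the contig, which required no significant difference between Chiquitita and ChiCa. The nearness of ChiCa to Chiquitita was therefore part of that choice, and the differences given for the 3 pools were not tested.

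Between the complex and the simple branching pools, which had no part in that choice, SAL1 differed by 0.13 on the log2 scale (standard error 0.31, 95% interval -0.51 to 0.78, adjusted p = 1.00 from limma). Across the array 0.0935% of contigs were called between these pools, a call being an adjusted p under 0.05 over all contigs with at least a 2-fold change. The sign turned to -0.072 without simple branching replicate 1, the lowest of the pool, so no direction can be given.

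**Figure D2:**
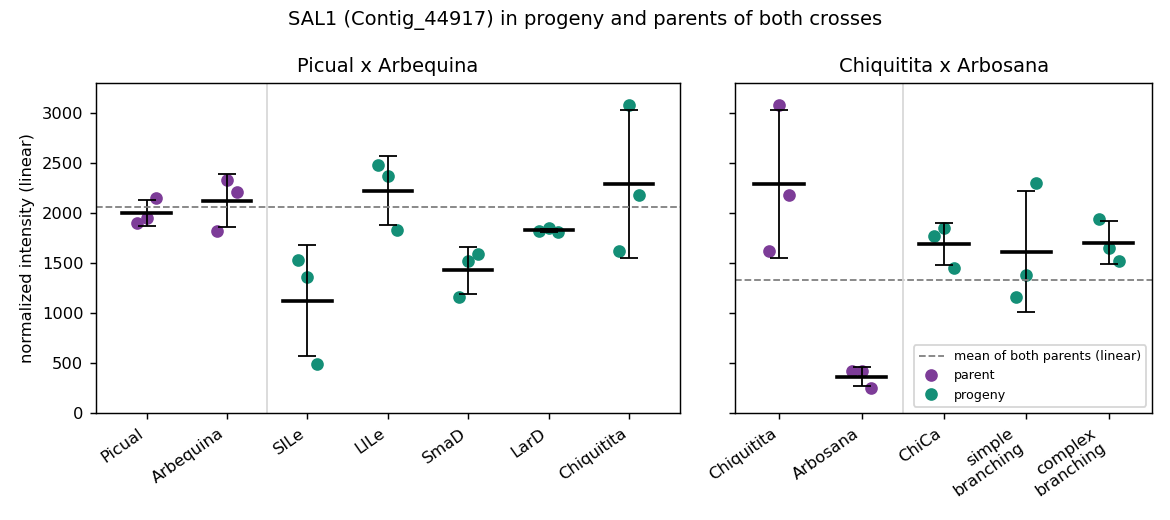
Normalized intensity of SAL1 on a linear scale (y axis) in parents (purple) and progeny (green) of Picual x Arbequina (left) and Chiquitita x Arbosana (right); points are arrays, bars means, whiskers SD (n = 3 arrays), and the dashed line is the mean of both parents. All SILe and SmaD arrays lie below the arrays of their parents, and 8 of the 9 pool arrays on the right lie above the dashed line at 1326.

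In the cross of Picual and Arbequina the parents had close levels of SAL1 and their arrays overlapped. Picual had intensities of 1896, 1953 and 2144, and Arbequina 1823, 2326 and 2210. The log2 fold change was -0.080 (standard error 0.31, 95% interval -0.72 to 0.56, adjusted p = 0.932 from limma), in a comparison that called 5.54% of all contigs. Both ends of the interval are short of a 2-fold change.

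The 4 seedling pools of this cross were spread more widely than the parents. SILe had 1526, 1357 and 488, SmaD 1161, 1519 and 1592, LarD 1820, 1844 and 1812, and LILe 2476, 2364 and 1827. All arrays of SILe and SmaD lay below the lowest parent array (1823), 2 of the 3 LarD arrays lay just below it, and 2 LILe arrays lay above the highest parent array (2326). In all, 8 of the 12 pool arrays were below every parent array, or 7 of 11 without SILe replicate 3. At least as many pool arrays lay below every parent array for 6.05% of all contigs, or for 6.64% without that array. The mean of the pools was 10.59 and that of the parents 11.00. The difference of -0.41 (standard error 0.19, 95% interval -0.80 to -0.015) had an unadjusted p of 0.0424 and an adjusted p of 0.158 from limma, and it was not called, while 2.79% of contigs were. Exact permutation of the single arrays gave p = 0.112 (two-sided). It took arrays of different pools and varieties as exchangeable, although replicates of a group share their plants. Without SILe replicate 3 the difference was -0.28 (adjusted p = 0.257 from limma). Against Picual alone the pools differed by -0.37 (95% interval -0.88 to 0.14, adjusted p = 0.354 from limma, 4.21% of contigs called) and against Arbequina alone by -0.45 (95% interval -0.96 to 0.060, adjusted p = 0.282 from limma, 4.5% called).

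Of the 8 tested comparisons of SAL1, that between the opposite internode pools was the largest. In the paper's measurements most SILe seedlings also had thinner trunks than every LILe seedling, so these pools do not differ in internode length alone. The arrays of SILe and LILe did not overlap, with the highest SILe array at 1526 and the lowest LILe array at 1827. The same held, in either direction, for 7.3% of all contigs, and 6.11% had means at least as far apart. The log2 fold change was -1.13 (standard error 0.31, 95% interval -1.78 to -0.49), a 2.19-fold difference with an unadjusted p of 0.00118. Over all contigs the adjusted p was 0.297 from limma, so SAL1 was not called, and only 0.0694% of contigs were. Adjusted over the 8 comparisons of this contig alone, which were chosen with earlier results of these data known, it was 0.00946. The size rests on SILe replicate 3, whose log2 value was -1.56 relative to the average of SILe replicates 1 and 2; 24.3% of all contigs lay at least that far away in that array. Without it the difference was -0.61 (adjusted p = 0.954 from limma). Without SILe replicate 1 instead, it was -1.44 and was called (adjusted p = 0.0444 from limma). In that fit 406 contigs were called across the array, against 26 with all arrays. Chiquitita lay on the side of LILe, with log2 means of 11.11 in both.

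Between the trunk diameter pools SAL1 arrays again did not overlap, with SmaD on the lower side, but this was so for 24.2% of all contigs in either direction, and 41.3% had means at least as far apart. In the paper's measurements most SmaD seedlings also had longer internodes than every LarD seedling, so these pools do not differ in trunk diameter alone. The 3 LarD arrays were nearly equal, 1812 to 1844, while SmaD ran from 1161 to 1592. The log2 fold change of -0.37 (standard error 0.31, 95% interval -1.01 to 0.27) did not pass the test (adjusted p = 0.734 from limma, 0.0561% of contigs called). With SmaD replicate 1 as the only SmaD array, because the other SmaD arrays bear conflicting labels, the difference was -0.65 (adjusted p = 1.00 from limma, with the lone array assumed to vary like the other groups).

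Dormant Picual shoot tips held SAL1 at about the level of active ones. The dormant arrays were at 1918, 1976 and 1489 and the active at 1896, 1953 and 2144, and they overlapped. The log2 fold change was -0.16 (standard error 0.31, 95% interval -0.81 to 0.48, adjusted p = 0.775 from limma), in a comparison in which 14.3% of all contigs were called. Over the 9 groups that had no part in the choice of the contig, the moderated F statistic was 2.47 (unadjusted p = 0.0367, adjusted p = 0.0999 from limma), while 27.7% of contigs passed at an adjusted p under 0.05. Without SILe replicate 3 the F statistic was 1.68 (adjusted p = 0.237 from limma).

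**Figure D3:**
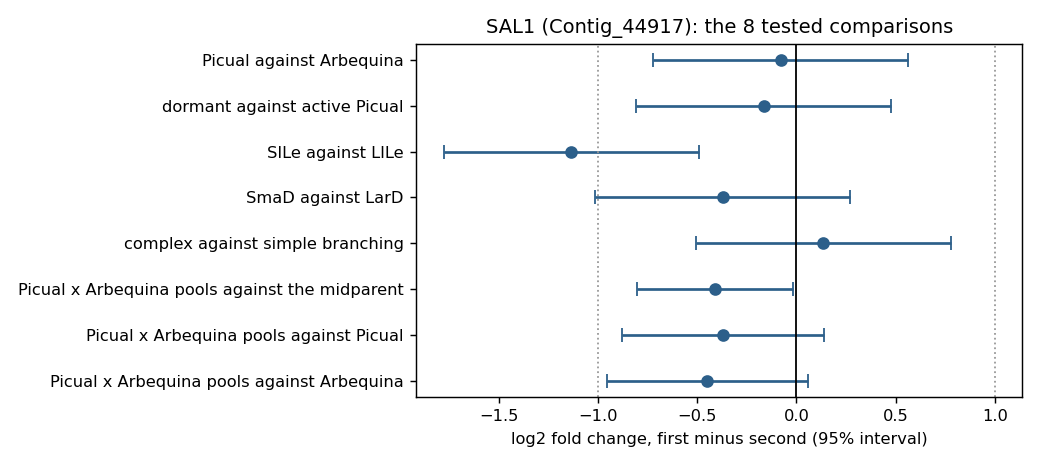
Log2 fold change of SAL1, first group minus second, with its 95% interval from limma (x axis) for the 8 tested comparisons (y axis); dotted lines mark a 2-fold change. Only SILe against LILe, at -1.13, and the pools against the mean of their parents, at -0.41, have intervals that leave out 0 before adjustment over all contigs, and neither was called.

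Between replicates of a group SAL1 varied about as much as the typical contig. Its residual SD over the 12 groups was 0.38 on the log2 scale, against a median of 0.45 over all contigs, and 37.0% of contigs varied less. The spread was uneven, with a coefficient of variation of the linear intensities of 0.896% in LarD and 6.51% in Picual, but 32.2% in Chiquitita, 37.5% in the simple branching pool and 49.5% in SILe.

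The contigs whose profile over the groups was most like that of SAL1 shared its low level in Arbosana. By Pearson's r over the 12 log2 group means, out of 37448 other contigs, these were Contig_61099 (r = 0.959), Contig_52560 (0.958), Contig_36365 (0.948), Contig_66393 (0.940) and Contig_15993 (0.937), none of which the files pair with a gene name. Arbosana was the lowest group for each of the 5. The low Arbosana mean dominates the SAL1 profile, so a ranking by r favours contigs low there, and nothing is read from this. Contig_66393 was at 13.85 in Chiquitita and 11.21 in Arbosana on the log2 scale, a difference close to that of SAL1, whereas Contig_52560, at 11.03 and 9.92, ran over a smaller range. With Arbosana left out, r over the other 11 groups was 0.784, 0.876, 0.682, 0.758 and 0.640 in the same order, and over the 36 arrays 0.789, 0.366, 0.474, 0.564 and 0.562. In all, 32 contigs had r above 0.9 over the 12 groups, and 5 over the 11 without Arbosana. The means share the arrays on which they were taken, so these values describe likeness on this array only. The ranking itself was not stable, as 0 of the 5 contigs stayed among the first 5 by Spearman's rho over the groups or by Pearson's r over the arrays, and 1 stayed without SILe replicate 3.

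**Figure D4:**
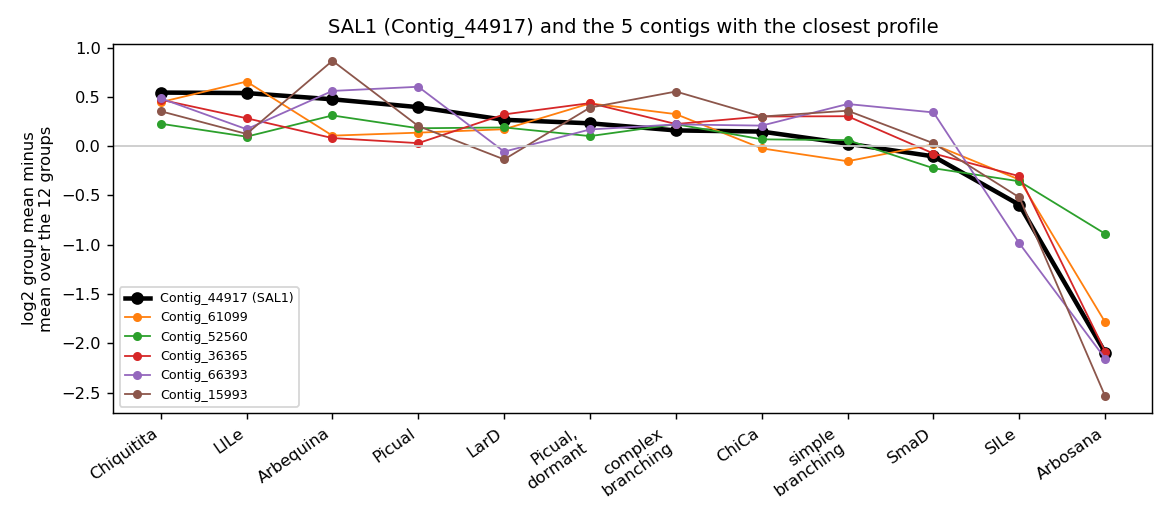
Log2 group mean minus the contig's mean over the 12 groups (y axis) for SAL1 (black) and the 5 contigs with the highest Pearson's r to it (colours), with groups in the order of the SAL1 level (x axis). All 6 lines reach their lowest point in Arbosana, which the ranking by r favours, and Contig_52560 varies least.

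The 13 other contigs named in the paper, most of which had also been picked for a difference between Chiquitita and Arbosana, were set beside SAL1 as a description. The 7 with a positive r to SAL1 over the 12 group means were all higher in Chiquitita than in Arbosana, and the 6 with a negative r were all lower. The sign of r thus repeats the contrast on which SAL1 and most of these contigs were picked, and nothing is read from it. With Arbosana left out, r of the 13 contigs ran from -0.440 to 0.403. The closest was Contig_50371 (r = 0.848), low in Arbosana like SAL1, but with r of 0.128 over the other 11 groups, followed by Contig_15512 (0.684) and SCL30 (Contig_17106, 0.675), a transcription factor of the GRAS family. DWF4 (Contig_61776), an enzyme of brassinosteroid synthesis, and CDC45 had r of 0.477 and 0.502, or 0.262 and 0.136 without Arbosana. SPY (Contig_10295), a repressor of gibberellin signalling, had the lowest r of the 13 over the 12 groups (-0.698, and -0.440 without Arbosana), with its highest level in Arbosana and its lowest in Chiquitita, the groups on which SAL1 was chosen. IRX1 (Contig_6392), a cellulose synthase of secondary walls, had r of -0.466 over all groups and 0.030 with Arbosana left out. SCL30 and Contig_15512 likewise came to 0.027 and -0.0013 without Arbosana.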

How the data were processed

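The authors deposited 1 intensity per contig and array, normalized with RMA (named in the submitters' processing notes; version not given in the sources used here), on a linear scale from 6.74 to 62499. Another deposited table, with 36 columns named by barcodes that no label explains, was not used here, and signal over background was not examined. Columns were given samples by their sample identifiers, and groups came from sample titles. Log2 values of all 36 arrays entered 1 limma fit with a mean per group (R 4.3.3, limma 3.58.1, lmFit and eBayes), with no covariate and no filter, and p-values were adjusted by Benjamini and Hochberg over 37449 contigs. The fit was tested on simulated data. Descriptions and figures used Python 3.11.15, pandas 2.3.3 and matplotlib 3.10.9.

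The named contigs are Contig_44917, the 13 others that the paper names, and the 5 with the highest Pearson's r to it over the group means. The contig, comparisons and lists were chosen with earlier results of these data known. P-values measure the spread between shoot samples, not between trees or seedlings. Arrays have no read depth, and their number limits the precision. Equal replicate numbers deviated together in Picual and Arbequina (r = 0.287, 0.218 and 0.283 over contigs). In SmaD and LarD r was 0.464, 0.488 and 0.083. In the other comparisons not every such pair deviated together.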

Additional observations from a re-analysis of the deposited data

How the results depend on the processing

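Of 192 alternative values for the 9 tests of SAL1, 188 kept their direction and their side of the threshold. For the t-tests and the permutations that threshold was an unadjusted p under 0.05 with at least a 2-fold change. The test over 9 groups passed with array weights (F 2.47, adjusted p = 0.0466 from limma), whose estimation stopped before it converged. In that fit 29241 contigs passed, against 10380 without weights, and SAL1 ranked only 28969 by p. The unadjusted p of SAL1 from limma was 0.0361 with weights and 0.0367 without. With single arrays left out, the F of the test over 9 groups ran from 1.68 to 3.25 (adjusted p = 0.0337 to 0.237 from limma). That test passed only without SILe replicate 1, where 13425 contigs passed. SILe against LILe ran from -1.44 to -0.61 on the log2 scale and was called only without SILe replicate 1, where 406 contigs were called. Complex against simple branching ran from -0.072 to 0.42, turning sign without simple branching replicate 1. The gap from Arbosana to the next lowest group, 1.50 on the log2 scale, was 1.99 without SILe replicate 3. The cause of these shifts was not tested.

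With the replicate number as a block no call changed: SILe against LILe kept -1.13 (adjusted p = 0.296 from limma), the pools against their parents' mean -0.41 (0.151) and Picual against Arbequina -0.080 (0.930). The other alternatives were fits on the groups compared, an intensity trend with robust variances, and quantile and median scaling. The lowest 25% of contigs were also left out, and the methods' t-test was run on log2 and linear values. On linear values that t-test gave SILe against LILe an unadjusted p of 0.0441 and SmaD against LarD 0.0399, both short of a 2-fold change. On log2 values the same t-test gave 0.103 and 0.0593. The 2 conflicting SmaD arrays were left out after seeing the data.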
